A study of Mus musculus with 12 samples.

Results

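These are the 10 genes Hspa5, Dnajb11, Hyou1, Sdf2l1, Hsp90b1, Pdia4, Pdia6, Creld2, Manf and Xbp1, which encode chaperones and folding factors of the endoplasmic reticulum (ER) and a transcription factor that drives their expression. They were taken by gene symbol from a table of 24532 genes, and all 10 were among the 13379 genes with enough counts to be tested. RNA of whole liver was sequenced in 12 libraries from mice of strain C57BL/6x129S6/SvEv at 20 weeks of age. The groups, of 4 libraries each, were Het (heterozygous controls, libraries 1 to 4), KO (Atp7b-/-, libraries 2, 4, 5 and 6) and KO-Drug (Atp7b-/- fed an LXR agonist, libraries 1 to 4). Atp7b encodes the copper-exporting ATPase that is lost in Wilson disease, and LXR, the liver X receptor, is a sterol-activated nuclear receptor. Every group thus carries at least 1 mutant allele, and none of the groups used here is wild type. The labels do not give the sex, the agonist's name, its dose or its duration, the part of Atp7b that is lost, or whether each library came from a separate animal. Where libraries are not separate animals, p-values cover only their own spread, which may be technical.

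Proteins that enter the secretory pathway fold in the ER, where Hsp70- and Hsp90-type chaperones hold the unfolded chain and protein disulfide isomerases join and rearrange its disulfide bonds. When unfolded protein accumulates, the sensors IRE1, ATF6 and PERK start the unfolded protein response, in which cleaved ATF6 and the spliced form of XBP1 raise the transcription of ER chaperone genes. Hepatocytes secrete most plasma proteins and hold an extensive ER, so these genes are abundantly transcribed in normal liver.

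The promoters of these genes are known for the ER stress response element (ERSE), at which NF-Y occupies the CCAAT end and ATF6 or XBP1 the CCACG end. RefSeq promoter sequences (build GRCm38.p6, the patch release of mm10) were at hand for 8 of the 10 genes, each from 250 bases before to 50 after the transcription start. The upstream 250 bases are shown for the 4 promoters that hold the full element, since they share it while their transcripts changed to unequal degrees in the livers. They lie at chr2:34771840-34772089 (Hspa5, plus strand), chr10:86705445-86705694 (Hsp90b1, minus strand), chr12:17266339-17266588 (Pdia6, plus strand) and chr15:88819396-88819645 (Creld2, plus strand). Each runs 5′ to 3′ along its gene, with the ERSE in capitals.
Hspa5: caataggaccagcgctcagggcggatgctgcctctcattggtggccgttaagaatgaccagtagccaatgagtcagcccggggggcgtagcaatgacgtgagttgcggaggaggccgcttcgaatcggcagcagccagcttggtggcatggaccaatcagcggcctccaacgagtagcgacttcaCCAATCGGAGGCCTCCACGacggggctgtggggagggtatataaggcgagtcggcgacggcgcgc
Hsp90b1: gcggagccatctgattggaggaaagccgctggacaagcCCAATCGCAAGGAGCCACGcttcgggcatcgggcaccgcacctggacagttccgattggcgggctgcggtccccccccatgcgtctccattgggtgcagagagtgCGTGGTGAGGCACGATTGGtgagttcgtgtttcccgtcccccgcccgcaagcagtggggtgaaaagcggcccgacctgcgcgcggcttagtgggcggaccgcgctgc
Pdia6: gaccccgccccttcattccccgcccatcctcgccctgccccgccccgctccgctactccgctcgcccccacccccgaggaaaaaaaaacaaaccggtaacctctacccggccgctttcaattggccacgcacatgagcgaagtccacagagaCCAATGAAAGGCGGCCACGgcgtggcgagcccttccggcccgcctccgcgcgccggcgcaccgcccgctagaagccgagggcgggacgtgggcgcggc
Creld2: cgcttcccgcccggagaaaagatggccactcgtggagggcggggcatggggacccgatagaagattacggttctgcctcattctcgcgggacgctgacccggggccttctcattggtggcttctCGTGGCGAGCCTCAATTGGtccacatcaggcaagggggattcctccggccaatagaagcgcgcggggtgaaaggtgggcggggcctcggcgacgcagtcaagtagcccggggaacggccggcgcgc
The motif searched was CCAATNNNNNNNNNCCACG, on both strands and with exact letters. Set side by side in the direction of the motif, with the fixed ends in capitals and the 9-base spacer in lower case, the matches were as follows.
Hspa5: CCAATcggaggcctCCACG
Hsp90b1, distal: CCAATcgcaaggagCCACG
Hsp90b1, proximal: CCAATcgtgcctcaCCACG
Pdia6: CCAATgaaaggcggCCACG
Creld2: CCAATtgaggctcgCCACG
Counted from the transcription start, the Hspa5 match spanned -65 to -47, the 2 of Hsp90b1 -212 to -194 and -107 to -89, that of Pdia6 -98 to -80 and that of Creld2 -126 to -108. The proximal Hsp90b1 match and the Creld2 match were on the strand opposite to the gene. The spacers differ in every match, whereas the flanking letters are fixed by the search. Of all 32851 promoter windows of the same length, 39 (0.119%) held the motif, and Hsp90b1's was the single window with 2. Dnajb11 held the shorter ERSE-II, ATTGGNCCACG, in the transcribed stretch 8 to 18 bases after the start, where it reads ATTGGcCCACG. ERSE-II was in 12 windows (0.0365%). The XBP1 element known as UPRE, searched as TGACGTGG, was in 222 windows (0.676%) and in none of the 8. Inexact matches were not counted for any motif, such as TGACGTGA in the Hspa5 sequence above, so the number of matches per gene covers exact strings only. The windows of Pdia4, Sdf2l1 and Xbp1 held none of these exact strings, which says only that these letters are not in those 300 bases.

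Library totals ran from 16535938 to 28329751 counts. Atp7b was at 9.90 to 16.2 counts per 1e6 counts (CPM, on library sizes scaled by TMM, edgeR's trimmed mean of M values) in Het, 1.68 to 2.71 in KO and 1.27 to 3.49 in KO-Drug, so it was low in both Atp7b-/- groups. The 10 hepatocyte markers summed to 72437 to 130090 CPM in Het, 39376 to 69985 in KO and 68209 to 89999 in KO-Drug, and none was at 0 in all libraries. Het 1 stood apart: in 4.52% of tested genes it lay outside the other Het libraries by the gap test of Dixon, against 1.13 to 1.18% for each of the others. KO 5 had Xist at 81.8 CPM with Ddx3y, a Y-linked gene, at 0.379. KO 6 had both, at 17.8 and 64.4 CPM, and in every other library Xist was at most 0.425. Only the KO group held such libraries, so both comparisons with KO carry this imbalance in sex-linked genes. Where leaving out Het 1, or KO 5 and KO 6 together, moved a count of calls by over 1.5 times, the value without them is given.

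KO-Drug livers held less RNA of most of the 10 genes than Het livers. Creld2 was 6.35-fold lower, Sdf2l1 6.39-fold, Manf 3.90-fold, Hyou1 3.06-fold, Hspa5 2.93-fold, Dnajb11 2.0-fold and Xbp1 1.77-fold. These 7 passed the test (adjusted p under 0.05 over all tested genes, termed called), against 8.45% of all tested genes called lower in that comparison. None was called higher, against 13.0% of all genes, and the median log2 fold change of the 10 was -1.28. At an unadjusted p under 0.05 the count higher was also 0, as it was with DESeq2. In all 7 every KO-Drug library lay below every Het library, which held for 11.0% of all genes. Hsp90b1, Pdia4 and Pdia6 were not called.

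**Figure D1:**
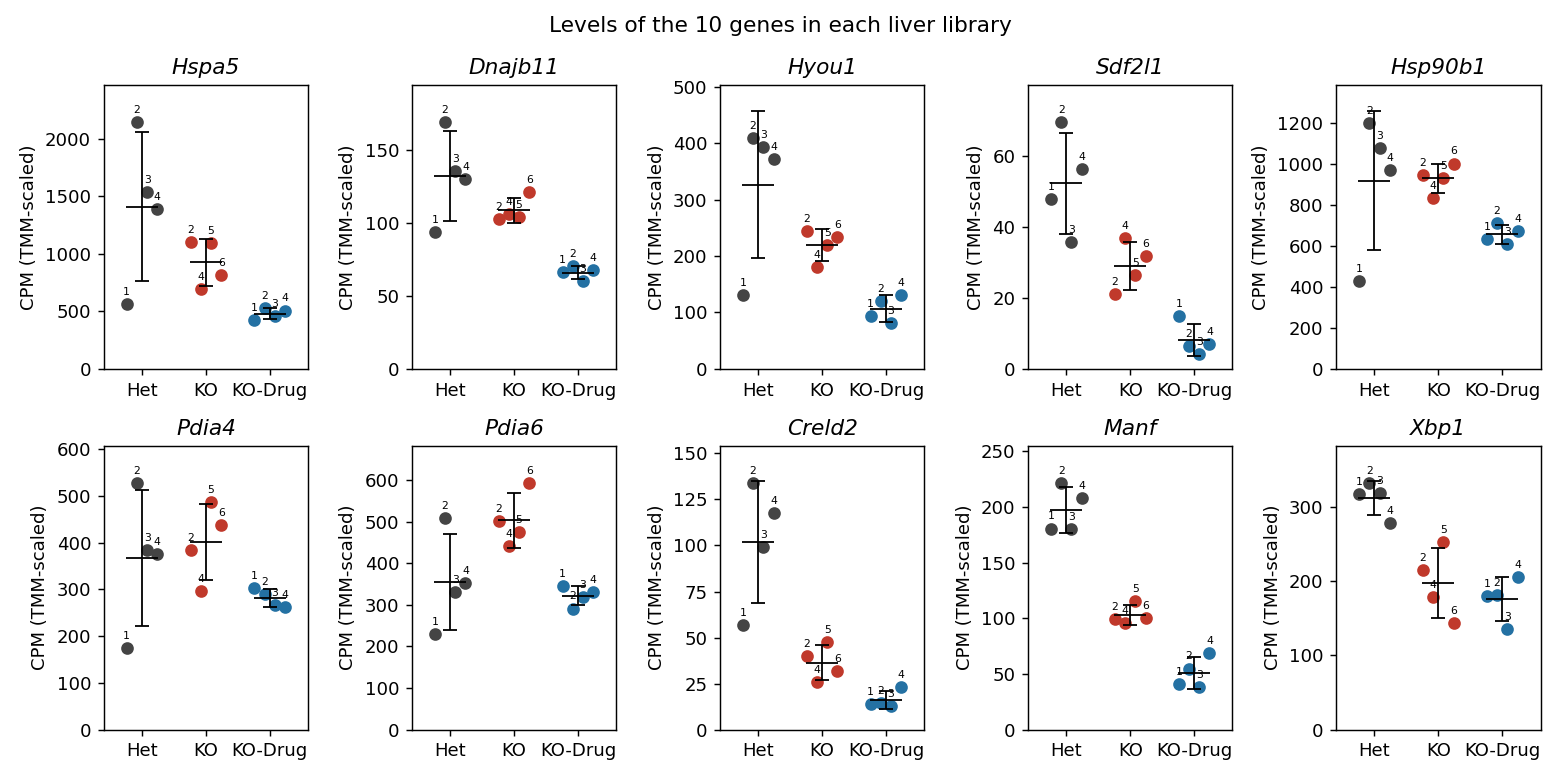
Level of each of the 10 genes in each library, in CPM on TMM-scaled library sizes (vertical axis from 0), for Het, KO and KO-Drug. Points are libraries with their label number, the horizontal line is the mean and the bar the SD of 4 libraries. Het 1 is the lowest Het library in 7 of the 10 genes, and in 32.2% of all tested genes. KO 4 and KO-Drug 3 are likewise the lowest of their groups in 7 of the 10, and in 25.7% and 24.3% of all tested genes. KO-Drug lies below all Het libraries for 7 genes, among them Creld2, Sdf2l1 and Manf.

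Between KO and Het 4 of the 10 genes were called lower: Creld2 by 2.80-fold, Manf by 1.92-fold, Sdf2l1 by 1.81-fold and Xbp1 by 1.58-fold. That share stands beside 17.7% of all genes called lower, and none of the 10 was called higher by edgeR, against 23.0% of all genes. Pdia6 was higher at an unadjusted p under 0.05 and with DESeq2. The groups did not overlap for Creld2, Manf and Xbp1, which held for 17.1% of all genes. The median of the 10 was -0.59, with a median over all genes of 0.02. The count depended on how libraries were scaled. With scaling by total counts alone, which moved the median of all genes to 0.54, Creld2 was the single gene called lower and Hsp90b1, Pdia4 and Pdia6 were called higher. Without Het 1, 6 genes were called lower, with Hspa5, Dnajb11 and Hyou1 gained and Sdf2l1 lost. With KO 5 and KO 6 both left out, 3 were called lower, with Sdf2l1 lost.

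Between KO-Drug and KO 7 of the 10 genes were called lower: Sdf2l1 by 3.54-fold, Creld2 by 2.27-fold, Hyou1 by 2.06-fold, Manf by 2.03-fold, Hspa5 by 1.93-fold, Dnajb11 by 1.64-fold and Pdia6 by 1.56-fold. Of all genes 11.0% were called lower and 8.80% higher, and none of the 10 was called higher by edgeR, by DESeq2 or at an unadjusted p under 0.05. The same 7 and Hsp90b1 had no overlap between the groups, which held for 12.5% of all genes. The median of the 10 was -0.83. When KO 5 and KO 6 were both left out, 3 genes remained called (Sdf2l1, Manf and Dnajb11). Leaving out KO 2 or KO-Drug 3 left 4, without Hspa5, Pdia6 and Hyou1. The median of the 10 moved less than these counts, to -0.74 without KO 5 and KO 6. It was -0.80 without KO 2 and -0.79 without KO-Drug 3. Het libraries bear on this comparison only through the gene filter, the scaling and the spread estimate that all groups share. The KO libraries enter both this comparison and that with Het, and the KO-Drug and Het libraries likewise enter 2 comparisons each, so the 3 sets of values are not independent.

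**Figure D2:**
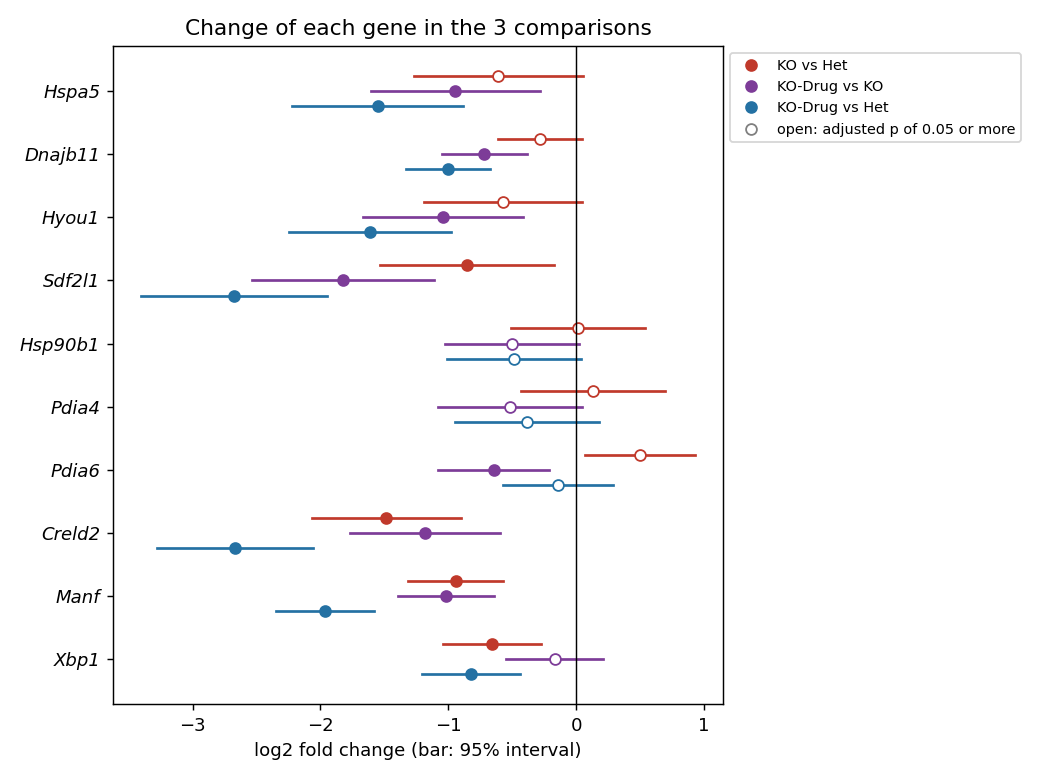
Log2 fold change of each gene (horizontal axis) in KO against Het, KO-Drug against KO and KO-Drug against Het, from edgeR with TMM scaling. Bars are 95% intervals and open points have an adjusted p of 0.05 or more; the KO-Drug against Het changes of Creld2 and Sdf2l1 lie farthest from 0, at -2.67 and -2.68.

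The first 4 genes form the Hsp70 machine of the ER. Hspa5 (chr2:34772090-34776529, mm10) encodes BiP, the central Hsp70 chaperone of the ER lumen and a repressor of the stress sensors. Values are given in the order of the library numbers of each group. Hspa5 was at 566, 2145, 1535 and 1393 CPM in Het, at 1100.0, 692, 1090.3 and 818 in KO, and at 428, 529, 457 and 507 in KO-Drug. All KO-Drug libraries were below all others, while Het 1 lay below every KO library and the other Het libraries above every one. On the log2 scale the change was -0.61 ± 0.31 (SE) in KO against Het (adjusted p = 0.129), -0.95 ± 0.31 in KO-Drug against KO (adjusted p = 0.0453) and -1.55 ± 0.31 in KO-Drug against Het (adjusted p = 0.00319). Without Het 1 the KO against Het change was -0.87 (adjusted p = 0.00534). The KO-Drug against KO call was close to the threshold and was lost without Het 3, Het 4 or any single KO or KO-Drug library, at adjusted p of 0.0526 to 0.108.

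Dnajb11 (chr16:22857845-22879634) encodes ERdj3, a J-domain co-chaperone that hands unfolded chains to BiP. It was at 94.0, 169, 136 and 130 CPM in Het, at 103, 106, 104 and 121 in KO, and at 66.5, 70.5, 60.0 and 67.5 in KO-Drug. KO-Drug lay below both other groups in every library, and KO lay within the Het range. The change, in log2 units, was -0.28 ± 0.15 in KO against Het (adjusted p = 0.153), -0.72 ± 0.15 in KO-Drug against KO (adjusted p = 0.00678) and -1.0 ± 0.15 in KO-Drug against Het (adjusted p = 0.000481).

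Hyou1 (chr9:44379490-44392369) encodes GRP170, a large Hsp70-like protein that exchanges BiP's nucleotide. Its levels were 132, 409, 394 and 372 CPM in Het, 245, 181, 219 and 234 in KO, and 94.1, 121, 80.9 and 131 in KO-Drug. Het 1 was at the level of the highest KO-Drug library, and the other 3 Het libraries were far above. In KO against Het the log2 fold change was -0.57 ± 0.29 (adjusted p = 0.130), and -0.84 without Het 1 (adjusted p = 0.00285). It was -1.04 ± 0.29 in KO-Drug against KO (adjusted p = 0.0244) and -1.61 ± 0.29 in KO-Drug against Het (adjusted p = 0.00167).

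Sdf2l1 (chr16:17130138-17132383) encodes a small luminal partner of the BiP and ERdj3 cycle. It was at 47.7, 69.4, 35.8 and 56.2 CPM in Het, 20.9, 36.8, 26.4 and 31.7 in KO, and 14.8, 6.51, 4.25 and 7.01 in KO-Drug. KO-Drug 1 was the highest of its group and still below every KO library. KO 4 lay just above Het 3, so Het and KO overlapped. Its log2 fold change was -0.85 ± 0.31 in KO against Het (adjusted p = 0.0442), a call that was lost without Het 1, 2 or 4, KO 2, 5 or 6 or KO-Drug 4. It was -1.82 ± 0.33 in KO-Drug against KO (adjusted p = 0.00333) and -2.68 ± 0.34 in KO-Drug against Het (adjusted p = 9.69e-05).

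Hsp90b1 (chr10:86690841-86705444) encodes GRP94, the Hsp90 of the ER, which matures integrins and Toll-like receptors. It was at 429, 1204, 1078 and 973 CPM in Het, at 949, 837, 935 and 1004 in KO, and at 635, 714, 611 and 672 in KO-Drug. Het 4 lay within the KO range and Het 2 and Het 3 lay above it. Het 1 was the lowest of all 12, and the KO-Drug libraries lay between Het 1 and the KO libraries. The log2 fold change in KO against Het was 0.02, with a 95% interval of -0.51 to 0.54 (adjusted p = 0.966). It was -0.50 ± 0.24 in KO-Drug against KO (adjusted p = 0.165), although the groups did not overlap, and -0.49 ± 0.24 in KO-Drug against Het (adjusted p = 0.181). Without Het 1 both were called, at -0.50 (adjusted p = 0.0119) and -0.72 (adjusted p = 0.00188). The KO-Drug against KO change was thus the same with and without Het 1, which is not among the libraries compared there. Hsp90b1 was also called lower in that comparison when only the 2 groups compared were fitted.

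Pdia4 and Pdia6 encode protein disulfide isomerases. Pdia4 (chr6:47796141-47813512) encodes ERp72 and was at 174, 528, 385 and 377 CPM in Het, 384, 297, 487 and 437 in KO, and 302, 291, 266 and 263 in KO-Drug. Its groups overlapped in every comparison, with Het 1 again the lowest library. On the log2 scale the change was 0.13 in KO against Het, with a 95% interval of -0.43 to 0.69 (adjusted p = 0.713). It was -0.52 ± 0.26 in KO-Drug against KO (adjusted p = 0.183) and -0.38 ± 0.26 in KO-Drug against Het (adjusted p = 0.334), and without Het 1 these were -0.51 (adjusted p = 0.0431) and -0.61 (adjusted p = 0.0280). The KO-Drug against KO change itself hardly moved, and Pdia4 was also called lower there when only the 2 groups compared were fitted.

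Pdia6 (chr12:17266589-17284785) encodes P5, an isomerase that also acts on the IRE1 and PERK sensors. It was at 230, 508, 330.2 and 352 CPM in Het, 501, 443, 475 and 594 in KO, and 344, 291, 319 and 332 in KO-Drug. All KO libraries were above 3 of the 4 Het libraries and above all of KO-Drug. The log2 fold change in KO against Het was 0.50, with a 95% interval of 0.07 to 0.93 and an adjusted p of 0.0600, just short of the threshold. It passed with upper-quartile scaling (0.54, adjusted p = 0.0437), with DESeq2 (0.51, adjusted p = 0.0283) and without Het 2 (0.72, adjusted p = 0.00771). The change was -0.64 ± 0.20 in KO-Drug against KO (adjusted p = 0.0382), a call lost without Het 4 or any single KO or KO-Drug library at adjusted p of up to 0.0923. It was -0.14 in KO-Drug against Het, with a 95% interval of -0.57 to 0.29 (adjusted p = 0.671).

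Creld2 and Manf encode small proteins that are retained in the ER or secreted under ER stress. Creld2 (chr15:88819646-88826681), a cysteine-rich protein with EGF-like domains, was at 57.0, 134, 98.9 and 118 CPM in Het, 39.9, 25.8, 47.8 and 31.9 in KO, and 13.8, 14.2, 13.0 and 23.1 in KO-Drug. The 3 groups formed separate ranges, with KO-Drug 4 close to KO 4. The change, in log2 units, was -1.49 ± 0.27 in KO against Het (adjusted p = 0.000938), -1.18 ± 0.27 in KO-Drug against KO (adjusted p = 0.0101) and -2.67 ± 0.28 in KO-Drug against Het (adjusted p = 2.3e-05).

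Manf (chr9:106888753-106891938) encodes a cytoprotective factor that binds BiP. It was at 181, 222, 180.2 and 208 CPM in Het, 99.5, 95.7, 116 and 100.1 in KO, and 40.6, 54.9, 38.2 and 68.9 in KO-Drug. Its groups were also separate, and Het 1 lay within the range of the other Het libraries here. Its log2 fold change was -0.94 ± 0.17 in KO against Het (adjusted p = 0.000976), -1.02 ± 0.17 in KO-Drug against KO (adjusted p = 0.0025) and -1.96 ± 0.18 in KO-Drug against Het (adjusted p = 5.98e-06).

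Xbp1 (chr11:5520641-5525993) encodes the transcription factor that IRE1 activates by splicing its mRNA, and counts per gene do not show the spliced share. It was at 317, 332, 318 and 278 CPM in Het, 215, 178, 252 and 143 in KO, and 180.3, 182, 136 and 206 in KO-Drug. Every KO and KO-Drug library was below every Het library, and KO and KO-Drug overlapped. On the log2 scale the change was -0.66 ± 0.18 in KO against Het (adjusted p = 0.00969) and -0.82 ± 0.18 in KO-Drug against Het (adjusted p = 0.00500). In KO-Drug against KO it was -0.17, with a 95% interval of -0.55 to 0.21 (adjusted p = 0.543).

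By RefSeq spans, Hspa5 overlaps Rabepk, Pdia4 overlaps Mir704, Pdia6 overlaps Atp6v1c2 and Dnajb11 overlaps Gm30505. The library kit keeps the strand, but the counting rule is not given in the sources used here, so reads of such pairs may have been shared.

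The direction in KO against Het turned on the scaling for several genes. Under total-count scaling Dnajb11 moved from -0.28 to 0.26, while Hspa5 and Hyou1 moved to -0.04 and -0.02. In that setting the changes of Hsp90b1 (0.58, adjusted p = 0.0266), Pdia4 (0.69, adjusted p = 0.0175) and Pdia6 (1.05, adjusted p = 0.000197) were called higher and those of Manf (-0.42, adjusted p = 0.0712) and Xbp1 (-0.13, adjusted p = 0.596) were no longer called. Creld2 was called lower under every scaling. With limma on the deposited FPKM (log2 of FPKM plus 0.1) the same 3 were called higher and Creld2 lower, and Hspa5 and Hyou1 were at 0.05 and 0.09. As a share of all counts, the 10 genes took 0.346 ± 0.0922% (SD, n = 4) in Het, 0.421 ± 0.0394% in KO and 0.209 ± 0.0205% in KO-Drug. The 7 genes called in KO-Drug against Het were called lower under every scaling.

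**Figure D3:**
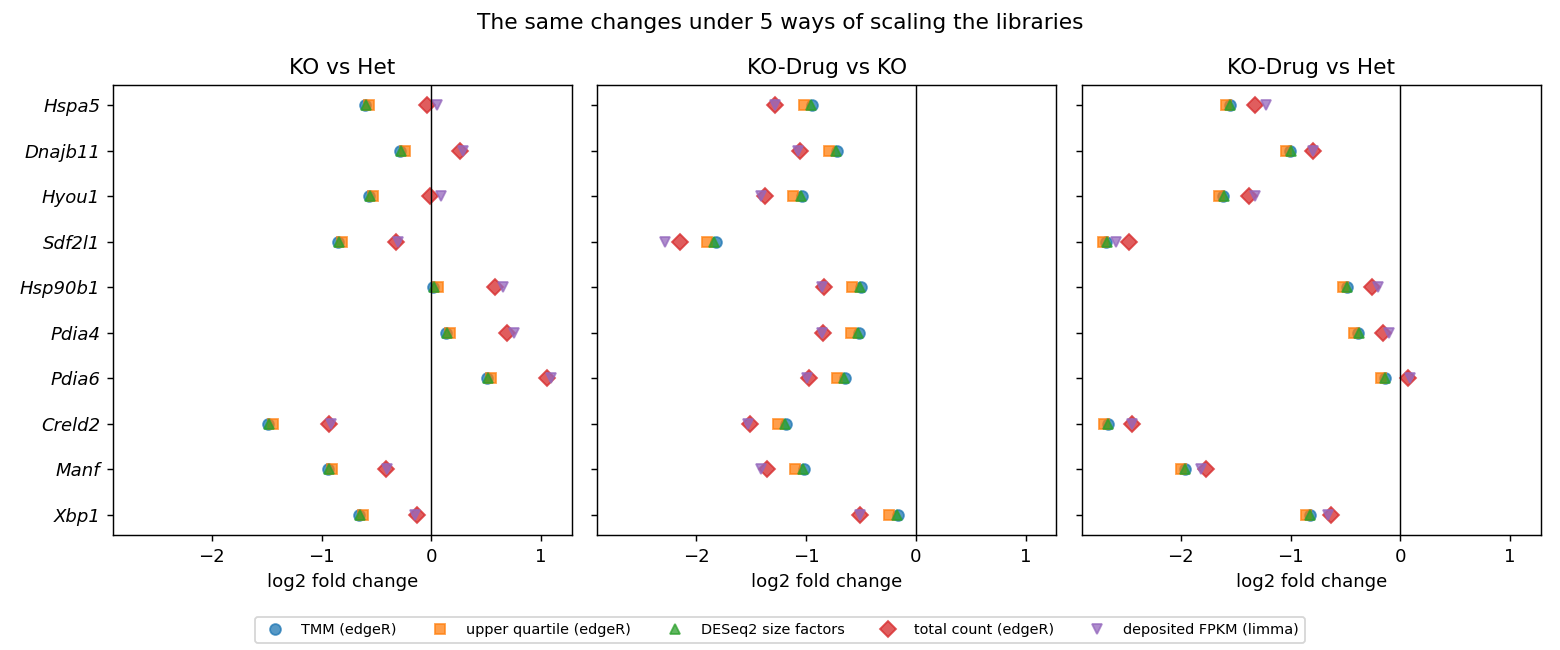
Log2 fold change of each gene under TMM, upper-quartile, DESeq2 and total-count scaling of the counts and with limma on the deposited FPKM, for the 3 comparisons. In KO against Het the total-count and FPKM points lie to the right of the others, across 0 for Dnajb11 (0.26 under total counts against -0.28); in KO-Drug against Het, 9 of the genes keep their side of 0 and Pdia6 does not.

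Ratios of counts within a library do not depend on its scaling. These ratios were chosen after the values were seen and carry no test. The count ratio of Pdia6 to Creld2 was 3.54 ± 0.465 in Het (SD, n = 4), 14.6 ± 4.03 in KO and 21.1 ± 4.90 in KO-Drug, with single libraries at 2.99 to 4.03, 9.93 to 18.6 and 14.4 to 24.9. All 4 Het libraries, Het 1 included, lay below all others. Hsp90b1 to Hspa5, the Hsp90 to the Hsp70 of the ER, was at 0.680 ± 0.0838 in Het, 1.04 ± 0.207 in KO and 1.37 ± 0.0735 in KO-Drug, with no overlap between the groups. Hyou1 to Hspa5 was 0.237 ± 0.0342, 0.243 ± 0.0383 and 0.221 ± 0.0338, with the 3 ranges overlapping. The first 2 ratios show unequal change of their genes between the groups, without showing which gene moved.

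**Figure D4:**
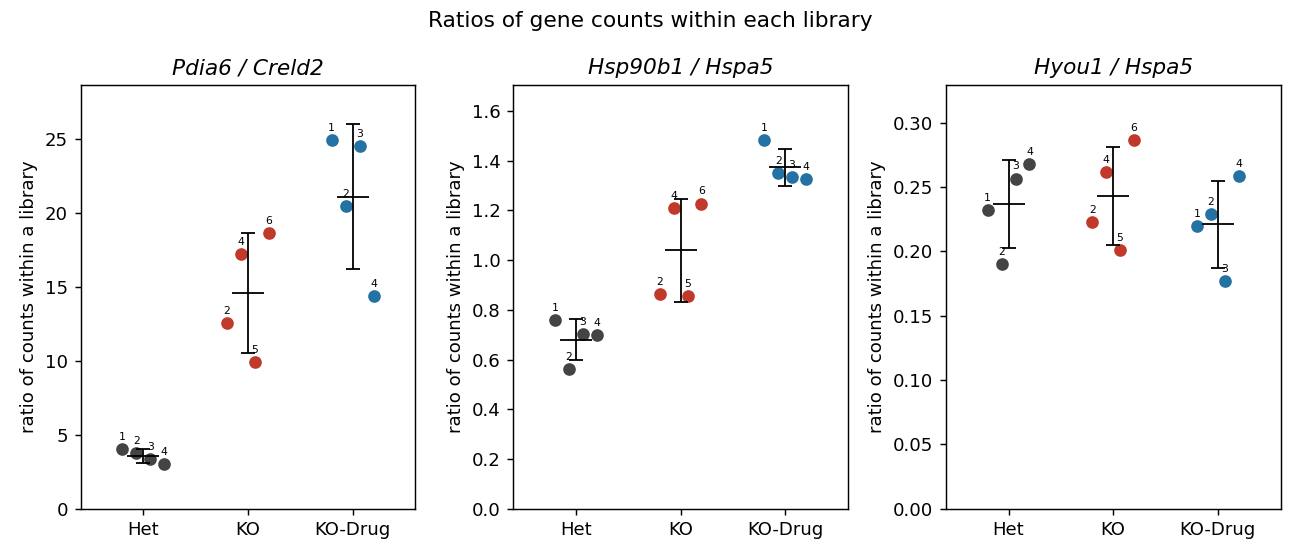
Ratio of the raw counts of 2 genes in each library (vertical axes from 0), for Pdia6 to Creld2, Hsp90b1 to Hspa5 and Hyou1 to Hspa5. Points are libraries with their number and bars show the mean and SD; the first ratio is 2.99 to 4.03 in Het and at least 9.93 elsewhere, while the third stays between 0.177 and 0.286 throughout.

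Levels of different genes are compared per length, in the deposited FPKM (fragments per kilobase and per 1e6 fragments). In Het, Hspa5 came first at 365 ± 141 (SD, n = 4), followed by Hsp90b1 at 221 ± 65.8, Pdia6 at 112 ± 26.8, Pdia4 at 97.6 ± 31.3 and Xbp1 at 94.8 ± 11.9. Manf (61.0 ± 6.80), Creld2 (49.9 ± 13.2), Hyou1 (48.7 ± 16.8), Dnajb11 (44.2 ± 6.12) and Sdf2l1 (32.1 ± 8.16) came below. Between Pdia6, Pdia4 and Xbp1, and again between Manf, Creld2, Hyou1 and Dnajb11, neighbours differed by less than the larger SD of the pair. In KO-Drug Hsp90b1 came first at 184 ± 18.5 and Hspa5 followed at 146 ± 16.1, with Pdia6 at 117 ± 13.0, Pdia4 at 87.4 ± 9.37 and Xbp1 at 60.8 ± 12.8. Dnajb11 (25.4 ± 2.78), Hyou1 (18.7 ± 4.64) and Manf (17.8 ± 5.51) followed, the last 2 within their SD. The last places went to Creld2 (9.11 ± 3.01) and Sdf2l1 (5.77 ± 3.52), apart by less than the SD of Sdf2l1. In KO, Hspa5 (358 ± 76.4) and Hsp90b1 (333 ± 9.62) differed by less than the SD of Hspa5, and Pdia6 (233 ± 18.4), Pdia4 (159 ± 29.5) and Xbp1 (87.2 ± 22.2) followed. Dnajb11 (53.5 ± 3.06) stood above Hyou1 (48.8 ± 4.48) and Manf (46.0 ± 4.57) there, and these last 2 were within their SD. Creld2 (26.3 ± 6.96) and Sdf2l1 (25.9 ± 6.87) came last, apart by less than their SD.

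The 10 genes also varied together within groups. After removal of the group means, 42 of 45 pairs of genes had a positive correlation of log2 CPM over the 12 libraries, with a median r of 0.56. The share among other genes was not computed, so this is not shown to be particular to the 10. These libraries share group and scaling. On the log2 scale, averaged over the 10 genes, Het 1 lay 0.63 below and Het 2 0.45 above the Het mean. The farthest library of the other groups was KO-Drug 3, 0.25 below its mean. KO-Drug 3 was below its group mean in all 10. Other genes were ranked among 9354 tested genes outside the set, with a mean of at least 5 CPM and no predicted or clone-type name. The 5 whose log2 CPM over the 12 libraries correlated most with the mean z-score of the set were Pdia3 (r = 0.98), Dnajc3 (0.96), Sec23b (0.95), Gmppb (0.94) and Magt1 (0.93). Pdia3 is a disulfide isomerase for glycoproteins, Dnajc3 a BiP co-chaperone, Sec23b a coat protein of vesicles that leave the ER, Gmppb an enzyme that makes GDP-mannose and Magt1 a subunit of the oligosaccharyltransferase. Pdia3 was at 306 ± 87.2, 276 ± 24.5 and 189 ± 18.3 CPM in Het, KO and KO-Drug. Gmppb was at 32.2 ± 7.58, 20.0 ± 3.00 and 12.8 ± 1.70 CPM.

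The wider machinery of the ER was read from 6 further lists. Their counts stand beside 17.7% of all genes called lower and 23.0% higher in KO against Het, 11.0% and 8.80% in KO-Drug against KO, and 8.45% and 13.0% in KO-Drug against Het. With total-count scaling 6909 of all 13379 tested genes were called higher and 460 lower in KO against Het, 354 and 3901 in KO-Drug against KO, and 2433 and 499 in KO-Drug against Het. Of 30 tested chaperones and oxidoreductases outside the set, 13 were called lower and 0 higher in KO-Drug against Het, with a median of -0.37; total-count scaling left 7 lower and 0 higher. No member of this list was higher at an unadjusted p under 0.05 or with DESeq2. Dnajb9, a J-domain partner of BiP that restrains IRE1, was at 129 ± 25.2, 61.8 ± 19.9 and 43.3 ± 6.93 CPM in Het, KO and KO-Drug. It fell by 1.58 on the log2 scale in KO-Drug against Het (adjusted p = 0.000231). Ero1lb, an oxidase that recharges disulfide isomerases, fell by 1.14 (adjusted p = 0.00214) and the thioredoxin-like Txndc11 by 0.95 (adjusted p = 0.000824). In KO against Het 9 of the 30 were called lower and 2 higher, with Sdf2, the paralogue of Sdf2l1, at -0.54 and Cnpy2 at -0.60; total-count scaling gave 0 lower and 14 higher, with Sdf2 at -0.02 and Cnpy2 at -0.09. Dnajc10, a disulfide reductase of the ER, went the other way, with 54.2 ± 2.07 CPM in Het, 79.9 ± 10.1 in KO and 42.5 ± 3.04 in KO-Drug, and was called higher in KO under both scalings. In KO-Drug against KO 3 of the 30 were called lower and 1 higher (20 and 0 with total-count scaling), with Dnajc10 at -0.91 (adjusted p = 0.000488) and Fkbp11, a prolyl isomerase, at -0.89 (adjusted p = 0.0137). Without Het 1 the lower counts of this list were 14 in KO against Het, 6 in KO-Drug against KO and 17 in KO-Drug against Het.

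Among 23 tested genes of ER-associated degradation, which returns misfolded proteins to the cytosol, 7 were called lower and 0 higher in KO-Drug against Het, and 7 lower and 2 higher in KO against Het. With total-count scaling these counts became 3 lower and 5 higher, and 2 lower and 10 higher. Herpud1, a scaffold of the retrotranslocation complex, was at 861 ± 209 CPM in Het, 260 ± 75.5 in KO and 274 ± 87.1 in KO-Drug, and Syvn1, its ubiquitin ligase, at 50.3 ± 21.2, 19.7 ± 4.54 and 14.7 ± 2.33. Both were called lower in KO and in KO-Drug against Het under either scaling. Edem2, a mannosidase-like factor, was higher in KO at 97.7 ± 11.0 than in Het at 67.0 ± 4.04 and KO-Drug at 57.8 ± 3.27, and was called in both comparisons with KO. In KO-Drug against KO 2 of the 23 were called lower and 2 higher, and 11 and 0 with total-count scaling. At an unadjusted p under 0.05, 3 of the 23 were higher in KO-Drug against Het, and DESeq2 called 1 higher.

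**Figure D5:**
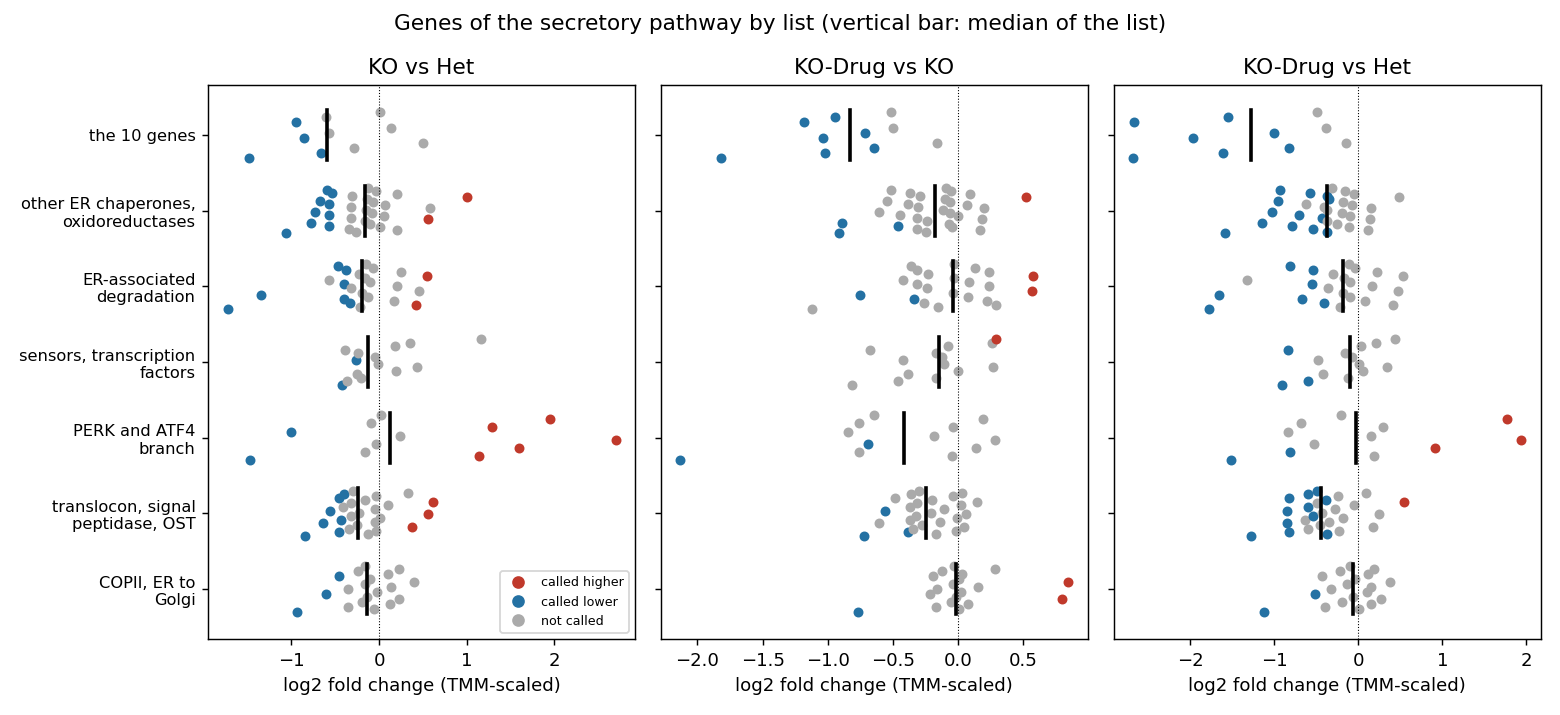
Log2 fold change (TMM-scaled) of every tested gene of the 10-gene set and of 6 further lists in the 3 comparisons; each point is a gene, coloured by its call, and the vertical bar is the median of the list (OST, oligosaccharyltransferase). The median of the 10 genes is the lowest of the lists in each panel, at -0.59, -0.83 and -1.28, and the PERK and ATF4 list holds genes called in both directions in KO against Het.

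Of 14 tested sensors and transcription factors of the unfolded protein response, 3 were called lower in KO-Drug against Het: Ern1, which encodes IRE1 (-0.83, adjusted p = 0.0136), Eif2ak3, which encodes PERK (-0.60, adjusted p = 0.0280), and Creb3l2 (-0.91, adjusted p = 0.0190). None of these 3 was called with total-count scaling, at -0.65, -0.41 and -0.71. Of the 14, 2 were called lower in KO against Het, Nfyc and Mbtps1 (17.7% of all genes), and 5 were called higher with total-count scaling, which called 6909 of all 13379 genes higher. In KO-Drug against KO Mbtps1 was called higher, and 7 of the 14 were called lower with total-count scaling. Of 12 tested genes listed for the PERK and ATF4 branch, which raises amino acid synthesis and stress genes, 5 were called higher and 2 lower in KO against Het, and 6 and 1 with total-count scaling. The list holds Eif2a, which encodes an initiation factor that is not the substrate of PERK. With TMM scaling Eif2a was not called in any comparison. Asns, asparagine synthetase, was at 42.8 ± 14.7 CPM in Het, 165 ± 34.6 in KO and 146 ± 23.8 in KO-Drug, Sesn2 at 5.08 ± 1.79, 15.4 ± 0.821 and 9.54 ± 0.940, and the transcription factor Atf3 at 0.738 ± 0.0961, 4.82 ± 2.42 and 2.84 ± 0.802. These 3 rose in KO against Het under both TMM and total-count scaling. The 2 called lower in that comparison were Atf4 itself and Chac1, and with total-count scaling the 1 called lower was Atf4. Atf4, which is regulated mostly in translation, also fell by 0.81 in KO-Drug against Het (adjusted p = 0.00349). In KO-Drug against KO 2 of the 12 were called lower, Sesn2 and Nupr1, and 5 with total-count scaling. In KO-Drug against Het 3 were called higher and 2 lower, and 3 and 1 with total-count scaling.

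Of 26 tested genes of the translocon, signal peptidase and oligosaccharyltransferase, 11 were called lower and 1 higher in KO-Drug against Het, and 6 and 2 with total-count scaling. The KO against Het counts were 7 lower and 3 higher, and 0 and 12 with total-count scaling, and in KO-Drug against KO 3 were called lower and 16 with total-count scaling. Spcs2, a signal peptidase subunit, was at 105 ± 5.95, 76.6 ± 1.65 and 58.7 ± 4.82 CPM in Het, KO and KO-Drug, and Srprb, a subunit of the signal recognition particle receptor, at 41.0 ± 12.7, 27.9 ± 2.56 and 16.9 ± 2.20. Both were called lower in KO-Drug against Het and against KO under either scaling. Of 19 tested genes of COPII coats and ER to Golgi transport, 2 were called lower in KO-Drug against Het, Preb and Sec23b, and 1 lower and 1 higher with total-count scaling. Of the 19, 3 were called lower in KO against Het (17.7% of all genes), and 11 higher with 0 lower under total-count scaling, beside 6909 higher and 460 lower of all 13379 genes. Of the 19, 2 were called higher and 1 lower in KO-Drug against KO, and 0 and 9 with total-count scaling. Sar1b and Sec24a, which act in vesicle budding from the ER, were called higher in KO-Drug against KO at 0.80 (adjusted p = 0.0112) and 0.85 (adjusted p = 0.0134), while Sec23b fell by 0.77 (adjusted p = 0.0338); with total-count scaling Sar1b and Sec24a were at 0.45 and 0.50 and not called.

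The counts of these lists moved with single libraries. Of the translocon list, 10, 5 and 16 genes were called lower without Het 1 in KO against Het, KO-Drug against KO and KO-Drug against Het. With each library left out in turn, the lower counts of the same list ran from 4 to 10, from 1 to 5 and from 7 to 16. For the chaperones and oxidoreductases outside the set these ranges were 7 to 14, 2 to 6 and 9 to 17, and for ER-associated degradation 5 to 7, 1 to 4 and 4 to 7. The sensors ranged from 1 to 3, 0 to 1 and 1 to 4 called lower, the PERK and ATF4 branch from 1 to 2 in each comparison, and COPII from 2 to 4, 0 to 1 and 2 to 4, where 4 in KO-Drug against Het came without Het 1. With KO 5 and KO 6 both left out, the translocon list had 5 lower and 0 higher in KO against Het and 0 called in KO-Drug against KO. The same setting called none of the sensors in KO-Drug against KO, and of the COPII list 1 higher and 0 lower, and of ER-associated degradation 1 each way.

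Among the genes with an ERSE in the window, Creld2 and Hspa5 fell in KO-Drug against Het, Hsp90b1, with 2 matches, and Pdia6 were not called there (Hsp90b1 was called without Het 1, at -0.72), and Pdia6 had the largest positive value of the 10 in KO against Het. Sdf2l1, whose window held no match, had with Creld2 the largest folds of the 10 in KO-Drug against Het. Differences between these genes were not tested.

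Other cell types were read from marker lists in the same libraries. The 10 macrophage and Kupffer cell markers summed to 423 to 569 CPM in Het, 1016 to 2161 in KO and 478 to 1075 in KO-Drug, with 10 of 10 called higher in KO against Het and 7 lower in KO-Drug against KO. Of the 10 hepatocyte markers, 6 were called lower in KO against Het and 2 higher in KO-Drug against KO. Of all genes 23.0% were called higher and 17.7% lower in KO against Het, and 8.80% higher and 11.0% lower in KO-Drug against KO. B and plasma cells, the latter rich in ER chaperones, had 8 of 10 markers in the table, which summed to 2.70 to 6.45 CPM in Het, 4.61 to 11.9 in KO and 1.88 to 2.55 in KO-Drug. Of the 4 tested, 1 was called higher in KO against Het, 2 lower in KO-Drug against KO and 1 lower in KO-Drug against Het. The 10 pancreatic acinar markers summed to 21.1 to 50.7, 12.4 to 21.6 and 11.2 to 15.9 CPM, with Cpa1 and Cpb1 at 0 in every library and the highest sum in Het 1. Of the 2 acinar markers tested, 1 was called higher and 1 lower in KO against Het, and 1 lower in KO-Drug against Het. The summed T and NK cell, stellate cell and cholangiocyte markers ranged from 3.33 to 5.82, 400.3 to 514 and 27.8 to 31.9 CPM in Het, 8.79 to 23.3, 562 to 849 and 87.7 to 166 in KO, and 3.23 to 6.58, 365 to 398 and 40.4 to 53.8 in KO-Drug. The 8 sinusoidal endothelial markers summed to 301 to 534, 419 to 506 and 366 to 475 CPM. In KO against Het 6 of 7 tested T and NK cell, 5 of 10 stellate, 4 of 9 cholangiocyte and 3 of 8 endothelial markers were called higher. Of the cholangiocyte markers 1 was called lower there. In KO-Drug against KO 4, 6, 3 and 2 markers of these lists were called lower, and 1 cholangiocyte marker higher. In KO-Drug against Het 1 hepatocyte marker was called higher and 1 lower, and 1 macrophage and 1 cholangiocyte marker were called higher. The T and NK cell, stellate and endothelial lists had no calls there, beside 13.0% of all genes called higher and 8.45% lower. The part of these cell types in the changes of the 10 genes was not tested, and in whole liver fewer cells of a type and less RNA per cell cannot be told apart.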

How the data were processed

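Per the file headers, the table that the authors deposited holds, for each gene, 1 raw read count and 1 FPKM value from every library. The tools named in the submitters' processing notes are StringTie 2.1.3b and FastQC 0.11.7, with build mm10; these sources do not name the aligner or the counting rule. In the table, 3 columns without a name were not used. Counts of all 12 libraries were fitted together by edgeR's quasi-likelihood method (version 4.0.16, under R 4.3.3) after filterByExpr (minimum count 10, total 15) and TMM scaling, with a two-sided contrast per comparison and Benjamini-Hochberg adjustment over the 13379 tested genes. The script was tested on simulated data. Alternatives were total-count and upper-quartile scaling, DESeq2 1.42.0, no filter, limma 3.58.1 on log2(FPKM + 0.1) or + 1, only the 2 groups compared, a block on the animal number, KO 2 and KO 4 alone, and each library left out. An exact permutation of 4 against 4 values could not go below a two-sided p of 0.0286. The 10 genes, the other lists and the rules were chosen with earlier results of these data known. From each other list and comparison, up to 3 called genes with the smallest adjusted p may be named; other genes are named for their place in a count.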

Additional observations from a re-analysis of the deposited data

Results flagged for a closer look

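Of 30 sets of 4 library values (10 genes in 3 groups), 2 held a library whose gap to its nearest neighbour exceeded Dixon's 95% critical value, and chance flags about 1 in 20 such sets. The 10 genes varied together within groups, so these sets are not independent. Over all tested genes, the 2 libraries flagged here, Het 1 and KO-Drug 4, were flagged in 4.52% and 1.12% of genes. Hyou1 was at 132 CPM in Het 1, against 372 to 409 CPM in the other Het libraries. Without that library Hyou1 was called lower in KO against Het, at a log2 fold change of -0.84 in place of -0.57. Creld2 was at 23.1 CPM in KO-Drug 4, against 13.0 to 14.2 CPM in the other KO-Drug libraries. It stayed called in KO-Drug against KO without that library, at -1.41.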

How the results depend on the processing

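In KO-Drug against Het 7 of the 10 genes were called lower under all 9 alternative settings, and 7 to 9 with each library left out in turn (9 without Het 1). In KO against Het the main count was 0 higher and 4 lower; it was 3 higher and 1 lower with total-count scaling and with limma on log2(FPKM + 0.1) or + 1, and 1 higher with upper-quartile scaling (3 lower) and DESeq2 (4 lower). With each library left out, 0 to 1 were called higher and 3 to 6 lower, the 1 being Pdia6 without Het 2. In KO-Drug against KO the main count was 7 lower; it was 3 when KO 5 and KO 6 were both left out, 9 with total-count scaling, the FPKM or only the 2 groups compared, and 4 to 9 with each library left out. The median log2 fold change of the 10 was -0.83 in the main setting and -0.74 without KO 5 and KO 6. The cause of the moves in these counts was not tested. The animal numbers were also used as a replicate block, with 4 residual degrees of freedom in place of 9. The block left 2 genes called lower in KO-Drug against KO (Manf and Sdf2l1), 3 lower in KO against Het and 7 in KO-Drug against Het. Numbers 5 and 6 occur only in KO, so the block takes up KO 5 and KO 6. Both comparisons with KO then rest on KO 2 and KO 4 as the KO libraries. The numbers were not taken as pairs: KO shares only numbers 2 and 4 with the other groups, and deviations of same-numbered Het and KO-Drug libraries correlated at -0.03 to 0.14 across genes, with KO-Drug 1 closest to Het 4 and KO-Drug 2, 3 and 4 each closest to their own number. Numbers 2 and 4 correlated best with their own number between KO-Drug and KO (r = 0.11 and 0.09), and not between KO and Het (0.07 and 0.02). This is a hint from the data, not the design. Over all genes, calls in KO-Drug against KO went from 2654 to 4255 with total-count scaling, to 4781 with log2(FPKM + 0.1), to 4923 with + 1, to 1741 with the block and to 1632 without KO-Drug 3 or 1633 without KO 4. Total-count scaling moved the split of higher to lower calls from 3077 and 2371 to 6909 and 460 in KO against Het, from 1177 and 1477 to 354 and 3901 in KO-Drug against KO, and from 1735 and 1130 to 2433 and 499 in KO-Drug against Het. With log2(FPKM + 0.1) the splits were 7148 and 453, 371 and 4410, and 2315 and 518, and upper-quartile scaling gave 842 and 1795 in KO-Drug against KO.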

Other observations

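Outside the 10 genes, 24 tested genes had an ERSE or ERSE-II in their RefSeq promoter window. In KO-Drug against Het 6 of them (25.0%) were called lower and 3 higher, with a median log2 fold change of -0.11. Of all tested genes 8.45% were called lower and 13.0% higher in that comparison. The 6 called lower were Herpud1 (-1.65), Syvn1 (-1.78), Dnajc3 (-0.79), Alg12 (-0.61), Rcl1 (-0.58) and Krtcap2 (-0.50). The 3 called higher were Tdrd9 (5.35), Acacb (2.29) and Gm6566 (1.90), each a larger change than any of these falls. All were named after their values were seen. Herpud1, Syvn1 and Dnajc3 act in ER quality control, and Alg12 is a mannosyltransferase that builds the glycan precursor. With total-count scaling 3 were called lower and 3 higher, beside 499 lower and 2433 higher of all 13379 tested genes. In KO against Het 5 (20.8%) were called lower and 2 higher, and in KO-Drug against KO 2 (8.33%) were called lower and 2 higher, with medians of -0.16 and -0.14. Of all genes 17.7% and 11.0% were called lower in these comparisons, and 23.0% and 8.80% higher. With total-count scaling the motif genes had 9 higher and 2 lower in KO against Het, and 2 higher and 10 lower in KO-Drug against KO. Of all 13379 tested genes 6909 were then called higher and 460 lower in the first comparison, and 354 and 3901 in the second. Calr and Canx, which encode the lectin chaperones calreticulin and calnexin, were among the 24 and were not called, at -0.40 and -0.25 in KO-Drug against Het.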
